A study of Mus musculus with 22 samples.

Results

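The 44 genes described here code for nuclear receptors other than the vitamin D receptor gene itself, and were taken from a fixed list out of 22208 protein-coding genes of the mouse mm9 annotation. The list holds the 3 retinoid X receptor (RXR) genes Rxra, Rxrb and Rxrg, 12 genes grouped here as RXR partners and 3 Nr4a genes. It also holds 4 genes of clock-linked receptors, 5 steroid receptor genes and 17 orphan and other receptors. The grouping does not say that receptors outside the 12 cannot pair with RXR. For each gene, binding sites counted if they were centred no more than 100 kb from one of the gene's annotated starts, and a histone mark was counted when a region covered a start. The assay was chromatin immunoprecipitation with sequencing (ChIP-seq), and the cells were MC3T3-E1, a mouse pre-osteoblastic line used here at passages 5 to 12. Differentiated cultures had been kept for 15 days in osteogenic medium, and undifferentiated cultures had not. Both were treated for 3 h with 100 nM calcitriol, the hormonal form of vitamin D, or with the ethanol vehicle. Lists of the vitamin D receptor (VDR) and RXR were analysed with calcitriol and with vehicle, and lists of C/EBPβ, RUNX2, H4K5ac, H3K9ac, H3K4me1, H3K4me3 and H3K36me3 with calcitriol, which makes 22 lists, 1 for each antibody, state and treatment. The 2 states also differed in preparation: per the labels' protocols, differentiated cultures were homogenized and spun through sucrose, so state and preparation cannot be told apart.

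VDR binds DNA mostly as a heterodimer with RXR. RXR is also the partner of the retinoic acid, thyroid hormone, peroxisome proliferator-activated, liver X, farnesoid X and pregnane receptors, so that RXR on chromatin need not mark VDR. Each heterodimer prefers a direct repeat (DR) of a short half-site, and the number of bases between the half-sites differs between partners: VDR with RXR is known for a spacing of 3 (DR3), thyroid hormone and liver X receptors for 4 (DR4), and retinoic acid receptors for 5 (DR5). In bone-forming cells, VDR, retinoic acid, glucocorticoid and thyroid hormone receptors are all known to take part in control of growth and matrix production.

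There was 1 list for each condition, so no difference between lists has a replicate check and no test was made. The factor lists held between 274 regions (VDR, differentiated cells, vehicle) and 17950 regions (C/EBPβ, undifferentiated cells, calcitriol), each 201 bp wide, on the chromosomes numbered 1 to 19 and X. Read depth is unknown, and differences in depth between lists were not tested. The VDR lists held 871 sites with calcitriol and 274 with vehicle in differentiated cells, and 7000 with calcitriol and 937 with vehicle in undifferentiated cells. The RXR lists held 8126, 4815, 7591 and 7834 sites in the same order. H3K4me3 covered a start at 6 of 9 osteoblast marker genes in each state and at none of 4 liver, 4 blood, 4 neuron or 4 muscle markers. Alpl, Ibsp and Bglap lacked it in both states, so this check does not tell the states apart. H3K9ac covered 7 osteoblast markers in differentiated and 6 in undifferentiated cells, and H3K36me3 covered 6 and 5. Outside the osteoblast markers, H3K9ac covered the neuron marker Syn1 in differentiated cells.

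The central 200 bp of each VDR and RXR site near these genes were searched for pairs of half-sites, reading either strand and allowing 1 mismatch in the 12 fixed bases. A half-site was AGGTCA or one of its variants, which were AGTTCA as well as GGGTCA and in addition GGTTCA. The 8 repeats with the fewest mismatches that lay nearest a start are shown because they give the letters under RXR or VDR calls near these genes. They are read 5′ to 3′ from the mm9 genome, with the half-sites in capitals and 12 bases on either side.
Rarb, DR5, no mismatch, chr14:17408015-17408055, minus strand: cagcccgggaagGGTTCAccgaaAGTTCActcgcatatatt
Rxrb, DR5, no mismatch, chr17:34173773-34173813, minus strand: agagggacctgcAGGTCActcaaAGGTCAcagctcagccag
Rxrb, DR1, 1 mismatch, overlapping that DR5, chr17:34173766-34173802, minus strand: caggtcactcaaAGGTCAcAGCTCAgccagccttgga
Rarg, DR5, 1 mismatch, chr15:102077601-102077641, minus strand: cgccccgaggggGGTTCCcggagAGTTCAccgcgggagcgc
Nr6a1, DR5, no mismatch, chr2:38678739-38678779, plus strand: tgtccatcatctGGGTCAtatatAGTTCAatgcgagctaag
Esrra, DR5, no mismatch, chr19:6944085-6944125, minus strand: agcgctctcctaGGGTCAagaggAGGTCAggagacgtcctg
Ppard, DR3, no mismatch, chr17:28418063-28418101, plus strand: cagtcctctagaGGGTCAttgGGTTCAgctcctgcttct
Rara, DR3, 1 mismatch, chr11:98800695-98800733, plus strand: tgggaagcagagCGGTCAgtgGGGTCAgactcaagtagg

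The Rarb repeat was centred 49 bp upstream of a start of Rarb, the gene of retinoic acid receptor beta, whose promoter is known for a retinoic acid response element of the DR5 kind. The RXR site over it was called with calcitriol and with vehicle in differentiated cells and in neither RXR list of undifferentiated cells. The Rarg repeat, centred at -690 bp from a Rarg start (negative being upstream), and the Esrra repeat, 51436 bp from an Esrra start in intergenic sequence, lay under RXR sites of all 4 RXR lists. The Rxrb and Nr6a1 repeats lay under RXR sites that were called only in undifferentiated cells with vehicle. The Rara DR3, centred 311 bp upstream of a start inside the gene, lay under a VDR site called with calcitriol in both states. The Ppard DR3, in an intron 8944 bp from the nearest Ppard start, lay under a VDR site called with calcitriol in undifferentiated cells, where RXR was also called with calcitriol. The Rara DR3 also lay under RXR sites called with calcitriol in both states, and a Rarb DR5 with 1 mismatch lay under a VDR site of undifferentiated cells with calcitriol. A match is a description of the sequence, not a measured contact.

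The RXR genes held many of the VDR sites of the set, and all of those were in undifferentiated cells. Rxra, the gene of RXR alpha (chr2:27531960-27618477, plus strand, mm9), had 0 VDR sites in differentiated cells with calcitriol and 0 with vehicle, against 11 with calcitriol and 1 with vehicle in undifferentiated cells. With every annotated start used, no other member had as many VDR sites. Of the 11 sites, 1 lay 8959 bp upstream of the nearest start, and the others lay from 18366 to 94980 bp downstream of the nearest Rxra start, in an intron, in an exon and in the intergenic sequence beyond the gene. When only the outermost start was used the count was 7, the same as at Rxrb. For 10 of the 11 sites Rxra was the gene of the nearest start. RXR stood differently at this gene: Rxra had 10 RXR sites with calcitriol and 7 with vehicle in differentiated cells, and 10 with calcitriol and 10 with vehicle in undifferentiated cells. Of the 11 VDR sites called with calcitriol in undifferentiated cells, 8 (72.7%) overlapped an RXR site of differentiated cells with calcitriol although none overlapped a VDR site there. Over all sites of that VDR list that lay within 100 kb of a protein-coding start and had no differentiated counterpart, 52.3% overlapped an RXR site of differentiated cells with calcitriol. Among the 8 at Rxra, the VDR sites centred 45604 and 45973 bp from the nearest start overlapped the same RXR site, centred at 45786 bp. They met it only near its edges. An overlap of 1 bp was enough to count, so the 72.7% rests in part on edge contacts. At chr2:27629903-27630176 and chr2:27631256-27631480, for example, RXR was called in all 4 RXR lists and VDR only in undifferentiated cells with calcitriol. The single vehicle site was at chr2:27641225-27641794, where C/EBPβ and RUNX2 were called in both states.

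**Figure D1:**
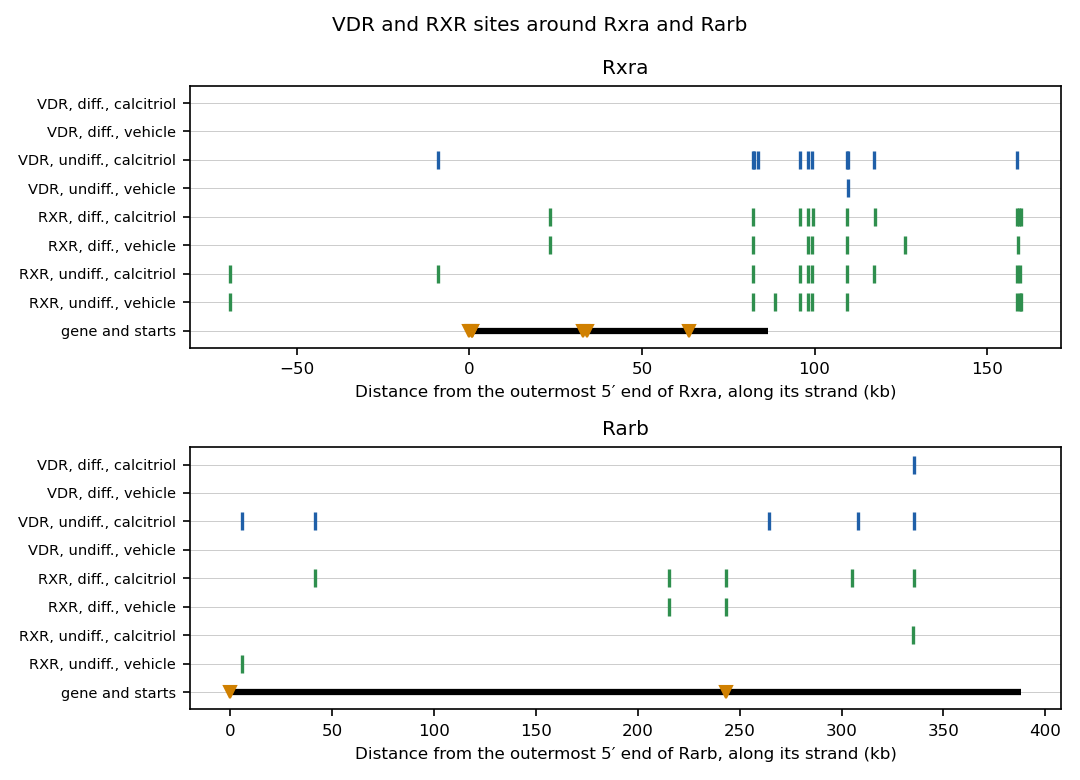
VDR sites (blue ticks) and RXR sites (green ticks) around Rxra and Rarb by list, with the distance from the outermost 5′ end of the gene on the x axis (kb) and the deposited lists on the y axis. The black bar is the gene and the orange triangles are its annotated starts. The Rxra VDR sites appear only in the 2 undifferentiated lists (11 and 1 sites), while RXR sites appear in all 4 RXR lists.

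Rxrb, the gene of RXR beta (chr17:34168757-34175338), had 0 VDR sites in both differentiated lists, against 7 with calcitriol and 5 with vehicle in undifferentiated cells. VDR was called within 1 kb of an Rxrb start in undifferentiated cells with both treatments, at 61 bp and at 207 bp from a start, and the second of these places was 43 bp from a start of the neighbouring gene Slc39a7. Most of the other sites lay at the promoter of Brd2, between 82840 and 86311 bp from an Rxrb start, and Rxrb was the gene of the nearest start for 1 of the 7 sites. Rxrb had 6 RXR sites with calcitriol and 5 with vehicle in differentiated cells, against 6 with calcitriol and 9 with vehicle in undifferentiated cells. Rxrg, the gene of RXR gamma, had no VDR, RXR or C/EBPβ site and 1 RUNX2 site, in undifferentiated cells. None of the 10 mark lists covered an Rxrg start, while all 10 covered a start of Rxra and of Rxrb.

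Among the possible partners of RXR, the retinoic acid receptor genes had sites of VDR and RXR in both states. Rara, the gene of retinoic acid receptor alpha (chr11:98789132-98836256), had 1 VDR site with calcitriol and 0 with vehicle in differentiated cells, against 4 with calcitriol and 2 with vehicle in undifferentiated cells. In every list but that of differentiated cells with vehicle, a VDR site lay within 1 kb of a Rara start. Rara had the most RXR sites of any member in undifferentiated cells, 13 with calcitriol and 14 with vehicle, and had 8 with calcitriol and 8 with vehicle in differentiated cells. Many of them lay inside the gene, for example at chr11:98801406-98801777, 565 bp from a start, where RXR was called in all 4 lists, C/EBPβ and RUNX2 in both states, and VDR in undifferentiated cells with calcitriol.

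Rarb (chr14:17263356-17651381, minus strand) had 1 VDR site with calcitriol and 0 with vehicle in differentiated cells, against 5 with calcitriol and 0 with vehicle in undifferentiated cells. All 5 were intronic and lay between 5.73 and 335 kb from the outermost 5′ end of the gene. The site of differentiated cells, at chr14:17315936-17316212, overlapped 1 of the 5 and carried RXR with calcitriol in both states. Rarb was one of 10 members with more RXR sites in differentiated than in undifferentiated cells: it had 5 with calcitriol and 2 with vehicle in differentiated cells, against 1 with calcitriol and 1 with vehicle in undifferentiated cells. RUNX2 sites numbered 3 in differentiated and 0 in undifferentiated cells. No H3K4me3 region covered a Rarb start in either state, and an H3K9ac region did so in undifferentiated cells only. Rarg, the gene of retinoic acid receptor gamma, had 1 VDR site with calcitriol and 1 with vehicle in differentiated cells, and 2 with calcitriol and 2 with vehicle in undifferentiated cells. The site present in all 4 VDR lists lay at the promoter of Pfdn5, at -68632 bp from a Rarg start, and held no RXR. RXR sites at Rarg numbered 4 and 4 in differentiated cells, and 5 with calcitriol and 7 with vehicle in undifferentiated cells.

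The other partners divided by VDR. Thra, the gene of thyroid hormone receptor alpha, had no VDR site in differentiated cells, against 1 with calcitriol and 2 with vehicle in undifferentiated cells. Its RXR sites numbered 6 with calcitriol and 3 with vehicle in differentiated cells, and 4 and 4 in undifferentiated cells. Thra and Nr1d1, the gene of a REV-ERB clock repressor, are neighbours on opposite strands and shared each of their VDR sites within 100 kb. Of the 2 vehicle sites, one lay in a Thra intron and the other in an Nr1d1 intron, while the calcitriol site lay at the promoter of Psmd3. Ppard, a fatty acid-sensing receptor gene, had no VDR site in differentiated cells, against 3 with calcitriol and 1 with vehicle in undifferentiated cells. Nr1h3, the gene of liver X receptor alpha, had 1 VDR site, in undifferentiated cells with calcitriol, at the promoter of Pacsin3. Nr1i3, a xenobiotic receptor gene, had 1 VDR site with calcitriol and 0 with vehicle in differentiated cells, against 5 with calcitriol and 2 with vehicle in undifferentiated cells. At Nr1i3 each of these lay nearer to another gene (Ppox, Usp21 or Tomm40l among them), and none of H3K9ac, H3K4me3 or H3K36me3 covered an Nr1i3 start. Thrb, Ppara, Nr1h2, Nr1h4 and Nr1i2 had no VDR site in any list. Of these, Nr1h2 also had no RXR site, while Ppara, a receptor gene of fatty acid breakdown, had 3 RXR sites with calcitriol and 1 with vehicle in differentiated cells and 3 and 3 in undifferentiated cells.

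In the Nr4a and clock groups VDR was called near Nr4a1 and Nr1d1 alone. That is 1 of 3 Nr4a genes in each VDR list. It is 1 of 4 clock genes in each undifferentiated list and 0 of 4 in each differentiated list. All genes stood at 12.1% with calcitriol and 6.15% with vehicle in differentiated cells, and at 40.9% and 15.7% in undifferentiated cells. Groups of 3 and 4 genes are too small to read a difference from. Nr4a1, an immediate early receptor gene, had 1 VDR site in each differentiated list, against 1 with calcitriol and 2 with vehicle in undifferentiated cells, all at the promoter of the neighbouring gene 9430023L20Rik. Nr4a2 had 1 RXR site with calcitriol and 0 with vehicle in each state, at different places: 2845 bp from a start in differentiated cells and 58196 bp upstream in undifferentiated cells. Nr4a3 had neither factor. Nr1d1 had no VDR site in differentiated cells, against 1 with calcitriol and 2 with vehicle in undifferentiated cells, and RXR within 1 kb of its start (380 bp upstream). Nr1d2, its paralogue, had 1 RXR site in each of the 4 lists, 753 bp from a start, and no VDR site. Rora had 2 RXR sites with calcitriol and 0 with vehicle in differentiated cells, against 0 with calcitriol and 2 with vehicle in undifferentiated cells. One of the places, at the neighbouring gene Narg2, was common to both.

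No steroid receptor gene (Esr1, Esr2, Nr3c1, Nr3c2 and Pgr) had a VDR site in any of the 4 lists. Among all protein-coding genes the share with a VDR site was between 6.15% and 40.9% by list, and 5 genes are too few to read a difference from. Of the 5 genes, 4 had an RXR site in at least 1 list, and 2 to 4 had one in any single list. The share of all genes with an RXR site was between 33.6% and 44.3% by list. Nr3c1, the glucocorticoid receptor gene, had 2 RXR sites with calcitriol and 1 with vehicle in differentiated cells, and 3 with calcitriol and 2 with vehicle in undifferentiated cells. One of them lay 239 bp from an Nr3c1 start and was called in 3 of the 4 RXR lists. Esr1, the estrogen receptor alpha gene, had 1 RXR site in each list, but at a different place in each state: 74496 bp inside the gene in differentiated cells and at -98034 bp, at the promoter of Gm221, in undifferentiated cells. Pgr, the progesterone receptor gene, had no site of any factor and no mark over a start.

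Among the orphan and other receptors, VDR sites were called with calcitriol near 2 of 17 genes (11.8%) in differentiated cells, against 12.1% of all protein-coding genes, and near 8 (47.1%) in undifferentiated cells, against 40.9%. At Nr2c1, an orphan receptor gene, the VDR site lay at its own start (152 bp upstream) in undifferentiated cells with both treatments, and RXR was called there in differentiated cells with calcitriol. Nr2f1 and Nr2f2 code for the COUP transcription factors, which are known to compete with other receptors for repeats. Nr2f1 had 0 VDR sites in the 2 differentiated lists, against 1 with calcitriol and 0 with vehicle in undifferentiated cells, 5597 bp upstream of a start. RXR was called there in undifferentiated cells with both treatments and in no differentiated list. Nr2f2 had 0 VDR sites in the 2 differentiated lists, against 2 with calcitriol and 0 with vehicle in undifferentiated cells, and the RXR site at one of them was again absent from differentiated cells. Nr2f6 had 2 VDR sites and Nr2e1 had 1, each in undifferentiated cells with calcitriol alone. Esrra, the estrogen-related receptor alpha gene, had 0 VDR sites in differentiated cells, against 1 with calcitriol and 2 with vehicle in undifferentiated cells, all at promoters of neighbours. Nr5a1 and Nr6a1 lie side by side and shared 1 VDR site, at the Psmb7 promoter. Nr0b1, Hnf4g, Rorb and Pgr had no site in any of the 12 factor lists.

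**Figure D2:**
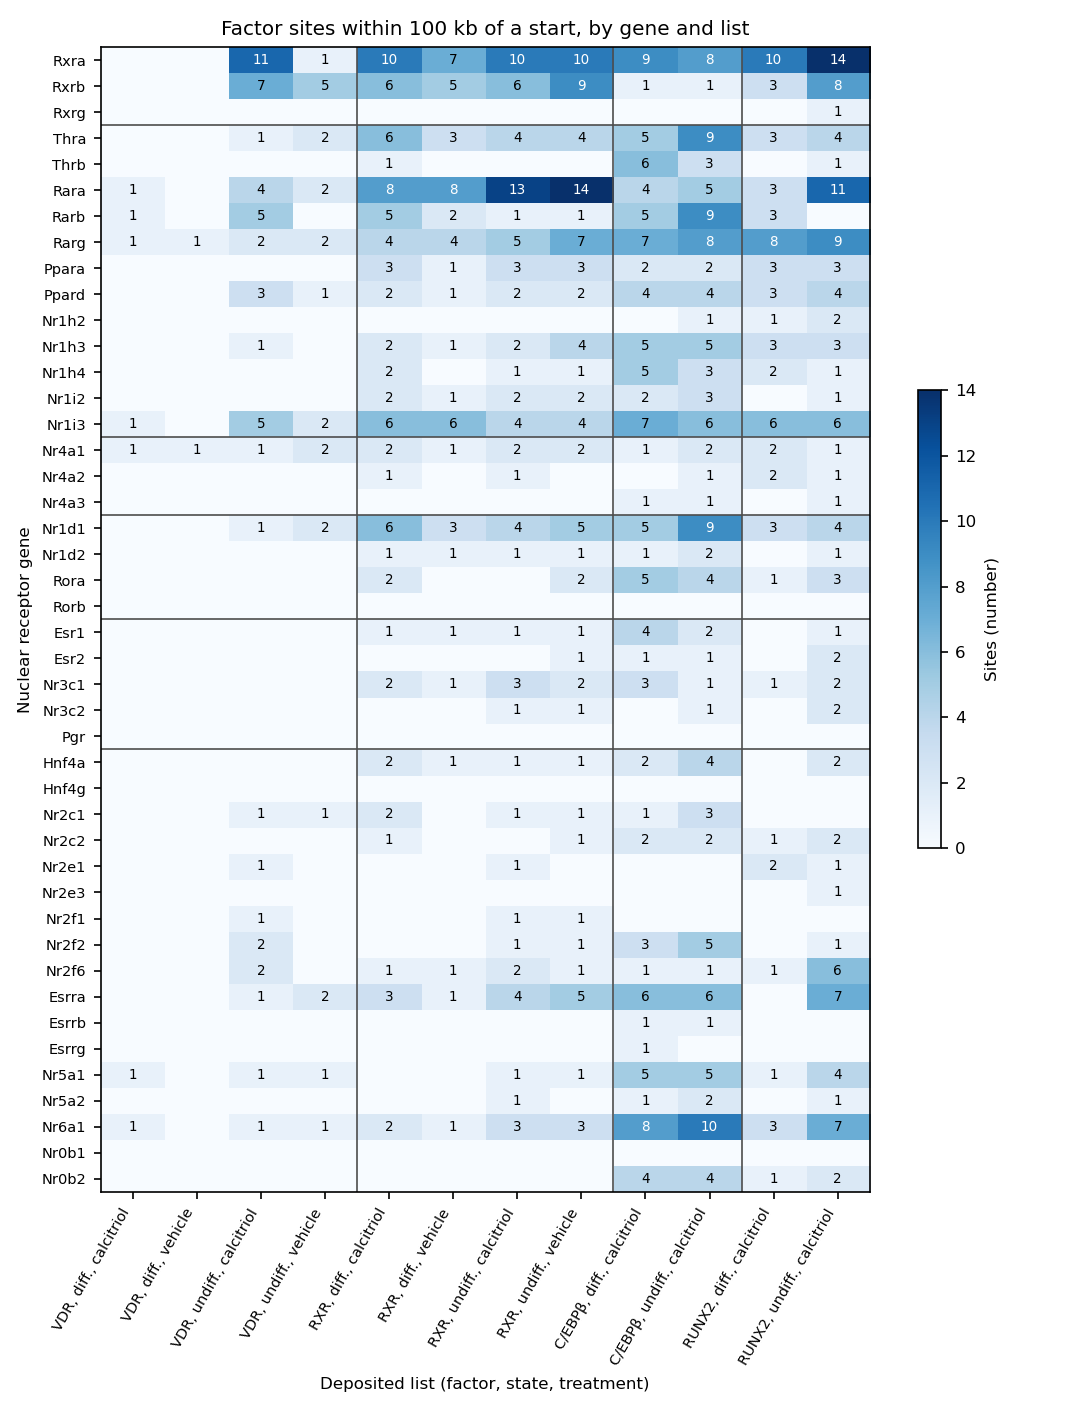
Number of factor sites within 100 kb of a start for each of the 44 genes (y axis) in each of the 12 factor lists (x axis), with colour and digits giving the number of sites and empty cells standing for 0. Lines separate the roles and the factors. Rxra has 11 VDR sites in undifferentiated cells with calcitriol, and the 5 steroid receptor genes have none in any VDR list.

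Over the 44 genes, the share with a VDR site was below that of protein-coding genes at large in differentiated cells with vehicle and above it in the other 3 VDR lists, but the direction in both calcitriol lists turned with the reach and the starts used. In differentiated cells 7 members (15.9%) had a VDR site with calcitriol, against 12.1% of all protein-coding genes, and 2 (4.55%) with vehicle, against 6.15%. In undifferentiated cells 19 members (43.2%) had one with calcitriol, against 40.9% of all genes, and 13 (29.5%) with vehicle, against 15.7%. The members' windows were larger, with a median of 212 kb against 200 kb for all genes and a median of 5 starts against 2. With the outermost start alone, which gives every gene a window of the same size, VDR was near 11.4% of members in differentiated cells with calcitriol, against 11.5% of all genes, and near 38.6% in undifferentiated cells with calcitriol, against 39.2%. With vehicle it was then near 4.55% in differentiated cells, against 5.95%, and near 25.0% in undifferentiated cells, against 15.1%. Within 50 kb of a start the 2 calcitriol shares were also below those of all genes, at 4.55% against 7.33% in differentiated cells and 22.7% against 27.1% in undifferentiated cells. Within 200 kb both were above, at 34.1% against 20.3% in differentiated cells and 61.4% against 57.4% in undifferentiated cells. The 91 genes of the Sox, Fox, Klf and Irf families of transcription factors had a VDR site in 15.4% and 3.30% of cases in differentiated cells with calcitriol and vehicle, and in 46.2% and 9.89% in undifferentiated cells.

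The calcitriol to vehicle ratio of VDR sites in undifferentiated cells was lower near these genes than over the whole lists. The members had 49 distinct VDR sites with calcitriol and 21 with vehicle, a ratio of 2.33, where the lists as a whole stood at 7.47. In differentiated cells the members had 6 with calcitriol and 2 with vehicle, a ratio of 3.00, where the lists stood at 3.18. The whole lists also hold sites far from any gene. Within 100 kb of any protein-coding start there were 5663 VDR sites with calcitriol and 885 with vehicle in undifferentiated cells. In differentiated cells there were 758 and 265. In undifferentiated cells 11 members had more VDR sites with calcitriol than with vehicle, against 32.9% of all genes, and 4 (9.09%) had fewer, against 1.33%. Those 4 were Thra, Nr1d1, Nr4a1 and Esrra, and within 200 kb of a start the number was 0. In differentiated cells 5 had more, against 6.88%, and 0 had fewer, against 0.149%. Of the 21 vehicle sites near members in undifferentiated cells, 14 overlapped a calcitriol site, and 13 of those 14 (92.9%) were within 1 kb of a protein-coding start, against 69.2% of such sites within 100 kb of any protein-coding gene.

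Between the states, the share of members with fewer VDR sites in differentiated cells was close to that of all genes. With calcitriol 16 members (36.4%) had fewer VDR sites in differentiated than in undifferentiated cells, against 36.1% of all genes, and 0 had more, against 0.320%. All 6 VDR sites near members in differentiated cells with calcitriol overlapped a site of undifferentiated cells with calcitriol. Of 43 sites present in undifferentiated cells and without a differentiated counterpart, 22 (51.2%) overlapped an RXR site of differentiated cells with calcitriol, against 52.3% of all such sites within 100 kb of a protein-coding start. The 7 members with a VDR site with calcitriol in both states were Rara, Rarb, Rarg, Nr1i3, Nr4a1, Nr5a1 and Nr6a1, and at Rara and Rarb alone did the shared place lie within the gene itself.

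RXR sites were near more of the members than of all genes in each RXR list. In differentiated cells 26 members (59.1%) had an RXR site with calcitriol, against 43.8% of all genes, and 20 (45.5%) with vehicle, against 33.6%. In undifferentiated cells 29 (65.9%) had one with calcitriol, against 43.9%, and 29 (65.9%) with vehicle, against 44.3%. The Sox, Fox, Klf and Irf genes stood at 52.7% and 34.1% in differentiated cells and at 58.2% and 57.1% in undifferentiated cells. Of the 12 genes grouped as RXR partners, 11 had an RXR site in differentiated cells with calcitriol and 10 in undifferentiated cells with calcitriol. The choice of genes per site changed the counts, and sites were also counted only for the gene of the nearest start. In undifferentiated cells with calcitriol, RXR was then near 15 members (34.1%), against 15.9% of all genes. VDR was then near 8 (18.2%), against 14.7%. RXR was called in some list and VDR in none at 14 members (31.8%), against 17.1% of all genes, and 11 members (25.0%) had neither receptor in any list, against 41.0%.

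For RXR, more members had a higher count with calcitriol than a lower one in differentiated cells, and the reverse held in undifferentiated cells. All protein-coding genes leaned the same way in each state. In differentiated cells 20 members (45.5%) had more RXR sites with calcitriol than with vehicle, against 26.9% of all genes, and 0 had fewer, against 4.18%. Among the 20 were Rxra, Rxrb, Thra, Rarb, Ppara and Nr3c1. In undifferentiated cells 5 members had more, against 15.0%, and 9 (20.5%) had fewer, against 17.7%. At 6 members (13.6%), against 8.20% of all genes, the count was higher with calcitriol in differentiated cells and lower in undifferentiated cells. Of these, only Rora and Esrra showed it within 50 kb of a start. Distinct RXR sites near members numbered 77 with calcitriol and 47 with vehicle in differentiated cells, and 77 with calcitriol and 85 with vehicle in undifferentiated cells. The ratios of 1.64 and 0.906 lay close to those of the lists, 1.69 and 0.969. With calcitriol, 10 members had more RXR sites in differentiated than in undifferentiated cells, against 17.8% of all genes, and 12 had fewer, also against 17.8%.

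C/EBPβ and RUNX2, a leucine zipper factor and the osteoblast master factor, were called near most members. C/EBPβ sites were near 33 members (75.0%) in differentiated cells, against 61.1% of all genes, and near 35 (79.5%) in undifferentiated cells, against 65.9%. RUNX2 sites were near 23 (52.3%) in differentiated cells, against 46.5%, and near 35 (79.5%) in undifferentiated cells, against 59.6%. For C/EBPβ, 8 members had more sites in differentiated than in undifferentiated cells, against 15.1%, and 16 had fewer, against 32.0%. For RUNX2, 5 had more, against 8.73%, and 28 (63.6%) had fewer, against 42.1%. Rara had 3 RUNX2 sites in differentiated and 11 in undifferentiated cells, and Esrra had 0 in differentiated and 7 in undifferentiated cells. The RUNX2 list was itself the shorter one in differentiated cells, with 7919 sites against 12012.

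**Figure D3:**
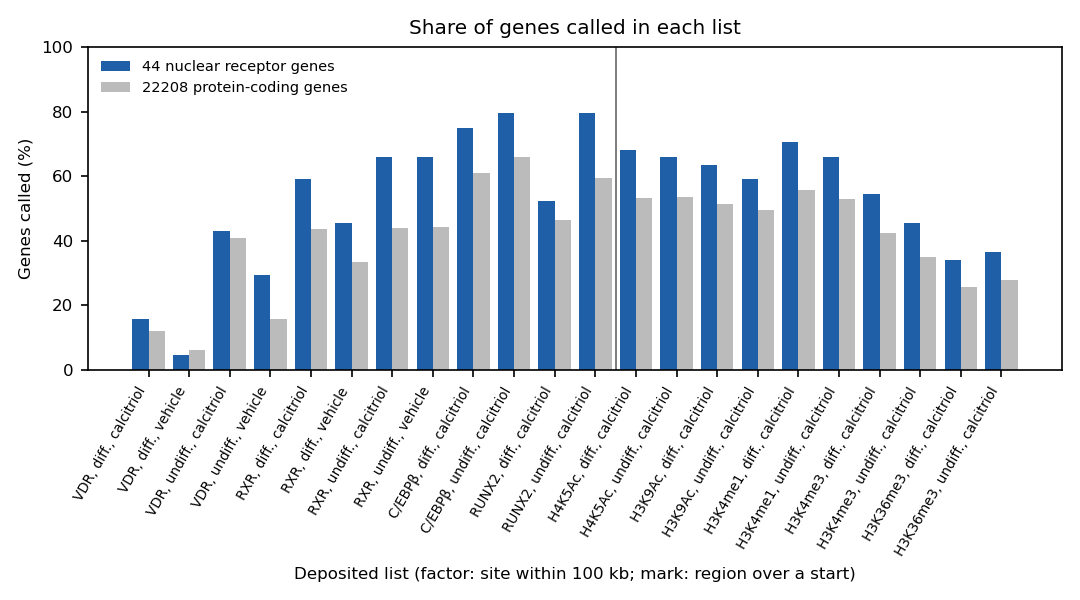
Share of the 44 genes (blue, left bar) and of 22208 protein-coding genes (grey, right bar) called in each of the 22 lists, in percent on the y axis. For factors, called means a site within 100 kb of a start, and for marks a region over a start. The blue bars stand above the grey bars in every RXR list, while in undifferentiated cells with calcitriol the VDR bars are 43.2% and 40.9%.

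Histone marks split the members into those with active-type chromatin at a start and those without. H4K5ac covered a start of 30 members in differentiated cells, against 53.4% of all genes, and of 29 in undifferentiated cells, against 53.6%. H3K9ac covered 28, against 51.5%, and 26, against 49.7%. H3K4me1 covered 31, against 55.6%, and 29, against 52.9%. H3K4me3, a mark of promoters, covered 24 in differentiated cells (54.5%), against 42.4%, and 20 in undifferentiated cells (45.5%), against 35.1%. H3K36me3, a mark of transcribed gene bodies, covered 15, against 25.8%, and 16, against 28.0%. Over the outermost start alone H3K36me3 covered 1 member in each state, so the counts of 15 and 16 rested mostly on other starts. The count of 1 is not set beside all genes here, so it is not read as a trait of these genes. It lay over at least 50% of the gene at 16 members (36.4%) in differentiated cells, against 39.3%, and at 19 (43.2%) in undifferentiated cells, against 41.4%. A mark counted over any start, so the lists that cover a gene need not share a start. The members had a median of 5 starts against 2 for all genes, and so more places where a mark could count. Of the members, 10 (22.7%) had all 10 mark lists over a start, against 17.0% of all genes, namely Rxra, Rxrb, Thra, Rara, Rarg, Nr1d1, Nr3c1, Nr2c1, Nr2c2 and Nr6a1. At 12 others (27.3%), against 38.7% of all genes, no list covered a start, namely Rxrg, Ppara, Pgr, Hnf4a, Hnf4g, Nr2e1, Esrrb, Esrrg, Nr5a1, Nr5a2, Nr0b1 and Nr0b2.

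H3K4me3 covered a start in differentiated cells only at Thrb, Nr4a1, Nr1d2 and Rora, where 8.67% of all genes had it in that state alone, and at 0 members in undifferentiated cells only, against 1.33%. The regions were 2.96 kb wide at Thrb, 1.88 kb at Nr4a1, 2.09 kb at Nr1d2 and 1.83 kb at Rora. At the 20 members marked in both states, the median width was 3.60 kb in differentiated and 7.90 kb in undifferentiated cells, against 2.54 kb and 5.48 kb for all such genes. The regions were narrower in differentiated cells at 18 of the 20 (90.0%), against 98.1% of all such genes, and the exceptions were Nr4a3 (5.42 kb in differentiated and 3.25 kb in undifferentiated cells) and Nr2f1 (9.73 kb and 4.00 kb). At Rara the regions over starts were 8.17 kb wide in differentiated and 48.2 kb in undifferentiated cells, the widest of the 20 in undifferentiated cells, and H3K4me3 lay over 17.3% and 90.2% of the gene.

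**Figure D4:**
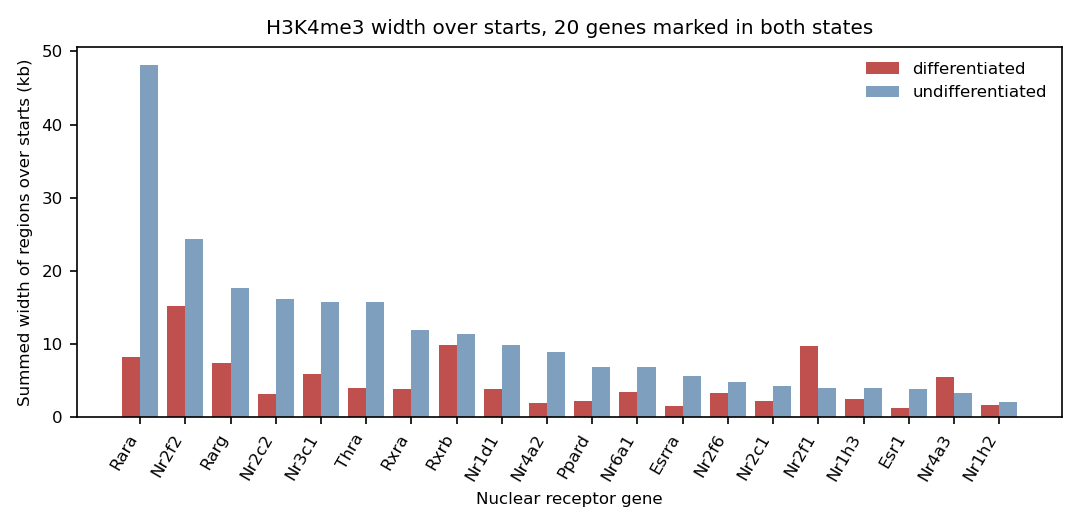
Summed width of the H3K4me3 regions over starts (y axis, kb) for the 20 genes (x axis) marked in both states, with differentiated cells on the left and undifferentiated cells on the right of each pair. Bars start at 0 and there is 1 list per state. Rara is the widest in undifferentiated cells, at 48.2 kb, and Nr4a3 and Nr2f1 are the 2 genes wider in differentiated cells.

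With calcitriol, each factor stood near a larger share of members with H3K4me3 over a start than without it, in both states. The same held over all protein-coding genes, so the direction is not particular to the members. With calcitriol, 14 of 20 members with H3K4me3 over a start (70.0%) had a VDR site in undifferentiated cells, against 57.6% of all such genes, and 5 of 24 without it (20.8%), against 31.9%. In differentiated cells RXR was near 20 of 24 members with H3K4me3 (83.3%), against 60.4%, and near 6 of 20 without it (30.0%), against 31.5%. VDR in differentiated cells with calcitriol was near 4 of the 24 (16.7%), against 17.9%, and 3 of the 20 (15.0%), against 7.91%.

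A larger share of the sites near members lay at promoters than of the sites near any gene. Of the 49 VDR sites near members in undifferentiated cells with calcitriol, 27 (55.1%) were within 1 kb of a protein-coding start, against 19.0% of sites within 100 kb of any such start. Of those 27, 5 were at a member's own start and 22 at that of another gene. RXR was called at 28 of the 49 (57.1%), against 59.7%, C/EBPβ at 13 (26.5%), against 42.4%, and RUNX2 at 19 (38.8%), against 53.5%. Of the 77 RXR sites in differentiated cells with calcitriol, 34 (44.2%) were within 1 kb of a protein-coding start, against 20.8%, and 10 of them at a member's own start. VDR was called at 4 of these 77 RXR sites (5.19%), against 7.16%, and at 27 of the 77 RXR sites of undifferentiated cells with calcitriol (35.1%), against 53.3%. A window does not say which gene a site acts on.

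DR5 repeats lay at a larger share of RXR sites near members than of all RXR sites in each of the 4 RXR lists, and DR3 repeats at VDR sites differed in direction between lists. With at most 1 mismatch, a DR3 lay at 2 of 6 member VDR sites in differentiated cells with calcitriol (33.3%), against 24.0% over that list, and at 4 of 49 in undifferentiated cells with calcitriol (8.16%), against 14.8%. With vehicle a DR3 lay at 0 of 2 in differentiated cells, against 1.46%, and at 2 of 21 in undifferentiated cells (9.52%), against 2.77%. Windows 2 kb to either side held a DR3 in 1.03% to 1.49% of cases. A DR5 lay at 5 of 77 member RXR sites in differentiated cells with calcitriol (6.49%), against 3.81%, and at 4 of 47 with vehicle (8.51%), against 3.97%. In undifferentiated cells a DR5 lay at 4 of 77 with calcitriol (5.19%), against 3.16%, and at 6 of 85 with vehicle (7.06%), against 2.99%. The flanking windows held a DR5 in 1.28% to 1.41% of cases. These are few sites, the same places recur between lists, and none of the differences was tested. Of the 11 Rxra VDR sites none held a DR3 and 1 held a DR4, which says only that those letters are not in the windows searched.

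Genes around the receptors were described by the same counts. Of 18 coregulator genes, which code for proteins that receptors recruit, 4 (22.2%) had a VDR site in differentiated cells with calcitriol and 0 with vehicle, where all genes stood at 12.1% and 6.15%. In undifferentiated cells 10 (55.6%) had one with calcitriol and 4 (22.2%) with vehicle, where all genes stood at 40.9% and 15.7%. Of 22 genes of ligand transport and turnover, 1 (4.55%) had a VDR site with calcitriol and 1 with vehicle in differentiated cells, and 13 (59.1%) with calcitriol and 1 with vehicle in undifferentiated cells. Among them, Dhrs3, a retinaldehyde reductase gene, had 0 VDR sites in differentiated cells, against 5 with calcitriol and 0 with vehicle in undifferentiated cells. Dio3, the gene of the thyroid hormone-inactivating deiodinase, had 0 in differentiated cells, against 4 with calcitriol and 0 with vehicle in undifferentiated cells.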

How the data were processed

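The deposited files are region lists of ChIP-seq in MC3T3-E1 cells, made by the authors with Bowtie and HOMER on mm9, per the submitters' processing notes, which give no versions. Each file has 6 columns, with the start counted from 0. The score column is 0 in the factor lists and varies in the histone lists, and the sources used here do not say what the deposited score measures. Its single use was an alternative without the 25% of regions that scored lowest. Region names give the number of merged peaks. One acetylation mark is H4K5ac in the sample labels and H3K5Ac in the labels' protocol, and is called H4K5ac here. Vehicle lists of antibodies other than VDR and RXR were not analysed here.

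Gene starts came from the GENCODE annotation of NCBIM37, the assembly of mm9, with protein-coding genes of chromosomes 1 to 19 and X merged by symbol. A site counted for every gene with a start within 100 kb of its centre, and sites were shared when they overlapped by 1 bp. Sequences were read from the same assembly. Each gene was set beside all protein-coding genes. With 1 list per group there were no replicates, and no test was made. Members to name were those with the most VDR or RXR sites, with VDR within 1 kb of a start, with an H3K4me3 call or a presence of VDR that differed between states, or with no site. The other genes were described by role. The members and lists were chosen with earlier results of these data known. Alternatives changed the reach to 50 or 200 kb, the assignment of sites, the starts used, the regions kept, the overlap and the repeat search. The counting and repeat search were tested on simulated data. Python 3.11.15, NumPy 2.4.6, pysam 0.24.0 and matplotlib 3.10.9 were used.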

Additional observations from a re-analysis of the deposited data

Results flagged for a closer look

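At 6 members (13.6%), against 8.20% of all protein-coding genes, the count of RXR sites with calcitriol minus that with vehicle was positive in differentiated cells and negative in undifferentiated cells. With 1 list per condition these differences between the states were not tested. The difference was 1 in differentiated and -3 in undifferentiated cells at Rxrb. It was 1 and -2 at Nr1h3, and 3 and -1 at Nr1d1. It was 2 and -2 at Rora, 1 and -1 at Nr2c2, and 2 and -1 at Esrra. The pattern depended on the reach and the starts used. Within 50 kb of a start it was absent at Rxrb, Nr1h3, Nr1d1 and Nr2c2 and held at Rora and Esrra. Within 200 kb it was absent at Nr1h3 and Esrra. With the outermost start alone it was absent at Rora and Nr2c2.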

How the results depend on the processing

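Of 182 values of 46 results under the alternatives, 137 stayed within 1.5 times the reported count and 45 did not. None moved for regions merged from at least 2 peaks, for a stricter overlap, for marks within 1 kb of a start, or without the lowest 25% of regions by score. A count below that stands without a share of all genes describes the members alone. Within 50 kb, VDR was near 2 members with calcitriol and 1 with vehicle in differentiated cells and near 10 with calcitriol in undifferentiated cells, against 7.33%, 3.90% and 27.1% of all genes, so that the calcitriol shares of members (4.55% and 22.7%) were below those of all genes. RXR was then near 18 members (40.9%) with calcitriol, against 30.2%, and 19 (43.2%) with vehicle, against 30.9%, in undifferentiated cells. Members with more sites with calcitriol then numbered 1 for VDR and 13 for RXR in differentiated cells and 6 for VDR and 3 for RXR in undifferentiated cells, with 1 having fewer RXR sites in differentiated cells. Fewer sites in differentiated than undifferentiated cells were then seen at 9 members for VDR, 4 for RXR and 18 for RUNX2. Within 200 kb, VDR in differentiated cells was near 15 members (34.1%) with calcitriol, against 20.3% of all genes. With vehicle it was near 4 (9.09%), against 10.3%. More VDR sites with calcitriol were then seen at 12 members in differentiated cells, and 23 had more and 0 fewer in undifferentiated cells. RXR was then lower with calcitriol at 1 member in differentiated cells and higher at 10 in undifferentiated cells. With sites counted only for the gene of the nearest start, VDR in differentiated cells was near 1 member with calcitriol and 0 with vehicle. All genes then stood at 3.06% and 1.08%. In undifferentiated cells VDR was near 8 members (18.2%) with calcitriol, against 14.7%, and 6 (13.6%) with vehicle, against 3.46%. RXR was near 11 members (25.0%) with vehicle in differentiated cells, against 11.4% of all genes. In undifferentiated cells RXR was near 15 (34.1%) with calcitriol, against 15.9%, and 18 (40.9%) with vehicle, against 16.4%. RUNX2 was near 10 (22.7%) in differentiated cells, against 17.5%, and 20 (45.5%) in undifferentiated cells, against 25.6%. More VDR sites with calcitriol were then seen at 1 member in differentiated and 6 in undifferentiated cells, fewer at 2 in undifferentiated cells, and more RXR sites at 10 in differentiated cells. Between states, 8 had fewer VDR sites, 6 fewer RXR sites, 3 more and 15 fewer RUNX2 sites in differentiated cells. With one start per gene, 3 members had more VDR sites with calcitriol in differentiated cells, and H3K36me3 covered 1 start in each state. A DR3 without mismatch lay at 0 member VDR sites in differentiated cells with calcitriol, and at 1 with calcitriol and 0 with vehicle in undifferentiated cells. With at most 1 mismatch in a 100 bp window, a DR3 lay at 1 in differentiated cells with calcitriol and 0 in undifferentiated cells with vehicle. No paired analysis was possible because there is 1 list per group and the counts come from no test, and no replicate could be left out. Read depth is unknown, so a site missing from a list is not shown to be absent.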
